A study of Rattus norvegicus with 6 samples.

Results

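Transcription factors are the proteins that bind DNA and set which genes a cell transcribes, and they fall into families by the fold of the DNA-binding domain. The genes described here are those in a table of ARVs-regulated genes whose name begins with the symbol of one of these families, from the EGR, KLF and other zinc finger genes to the E2F, forkhead, MYB, nuclear receptor and leucine zipper (bZIP) genes. Of 1756 genes in the table, 41 carried such a name. Atf6 and Creb3l1 were left out, which gave 39 transcription factor genes. A few of these encode partners of transcription factors or, by name only, other proteins, and they are pointed out below.

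The cells were neonatal rat ventricular cardiomyocytes (NRVCs) from Sprague Dawley rats of 2 to 3 days of age, grown in culture. The treated group received a cocktail of antiretroviral drugs (ARVs: Ritonavir, Abacavir, Atazanavir and Lamivudine) at 5 µM for 24 h (the sources do not say whether of each drug or in all), and the control group received DMSO for 24 h, with 3 RNA sequencing libraries each. Pre-plating, which removes cells that attach fast, was the step that enriched for heart muscle cells. The sources do not say whether each library came from its own preparation, so the spread between libraries may be technical. The authors deposited only the genes that had passed their own test on these libraries. A transcription factor gene that is not in the table was not analysed here, and the tests below measure each change against its spread and are not independent evidence of it.

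Summed over the table, counts came to 4329218 to 5271521 per ARVs library and 4871069 to 5871352 per DMSO library. The 39 genes took 0.772% to 0.802% of these counts with ARVs and 0.667% to 0.69% with DMSO. The table held 5 of 12 cardiomyocyte markers (3 higher, 2 lower), with means of 1324 FPKM (fragments per kilobase of transcript, scaled to depth) with ARVs and 914 FPKM with DMSO for Myh7 and 832 FPKM with ARVs and 1498 FPKM with DMSO for Myh6, the heavy chains of cardiac myosin. Smooth muscle markers were there too, 6 of 7, with a summed level of 2999.7 to 3398 FPKM in ARVs libraries and 4185 to 4886 FPKM in DMSO libraries. It also held 5 of 10 fibroblast markers (2 higher, 3 lower) and 2 of 8 endothelial markers (1 higher, 1 lower). Of the macrophage and leukocyte markers 4 of 10 were there, 3 higher (Adgre1, Cd68 and Lyz2) and 1 lower (Cd74), with a summed level of 51.1 to 54.9 FPKM in ARVs libraries and 38.8 to 43.5 FPKM in DMSO libraries. In a bulk library, fewer cells of a type and less RNA per cell cannot be told apart. DMSO replicate 2 stood apart from the other controls in 23.7% of the transcription factor genes tested (5 low and 4 high against their mean), against 17.7% of all listed genes.

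Some of these families answer signals within minutes. EGR1 and EGR2, the AP-1 proteins (FOS and JUN), NR4A1 and several KLF proteins are classed as immediate-early or early response factors, whose genes are switched on by growth factors and stress without new protein synthesis. E2F, MYB and FOXM1 proteins drive waves of gene expression through the cell cycle, and DBP and NFIL3 carry the rhythm of the clock to its output genes. In heart muscle cells, several KLF proteins and nuclear receptors are known for controlling metabolism and growth.

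With ARVs, the growth-responsive zinc finger genes Egr1 and Egr2 rose, and the cell cycle factor genes Foxm1, E2f2, E2f8, Mybl1 and Mybl2 fell, the call of Mybl2 depending on the scaling. Raw counts, scaled by the size factor the authors had used for each library, went into edgeR's quasi-likelihood test with Benjamini-Hochberg adjustment over the 1751 genes that passed a filter on low counts. Of the 39 genes, 38 were tested and all 38 passed an adjusted p of 0.05, as did 100% of the listed genes, so passing sets none of them apart. In direction, 21 of the 38 were higher and 17 lower (55.3% higher), where the listed genes were 39.9% higher and 60.1% lower. The median log2 fold change was 0.23 for the transcription factor genes and -0.25 for all listed genes. Higher members had a median log2 fold change of 0.37 and lower members one of -0.49. A change of more than 1.5-fold was seen in 12 of the 38 (5 higher, 7 lower), or 31.6%, against 28% of the listed genes. More than 2-fold changes were seen in 1 of the 38, Foxo6, against 164 of the 1751 listed genes tested. In 36 of the 39 genes (92.3%) all ARVs libraries lay on one side of all DMSO libraries, against 95.9% of listed genes. With 3 libraries in each group, the smallest p of an exact permutation test on a single gene is 0.1.

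**Figure D1:**
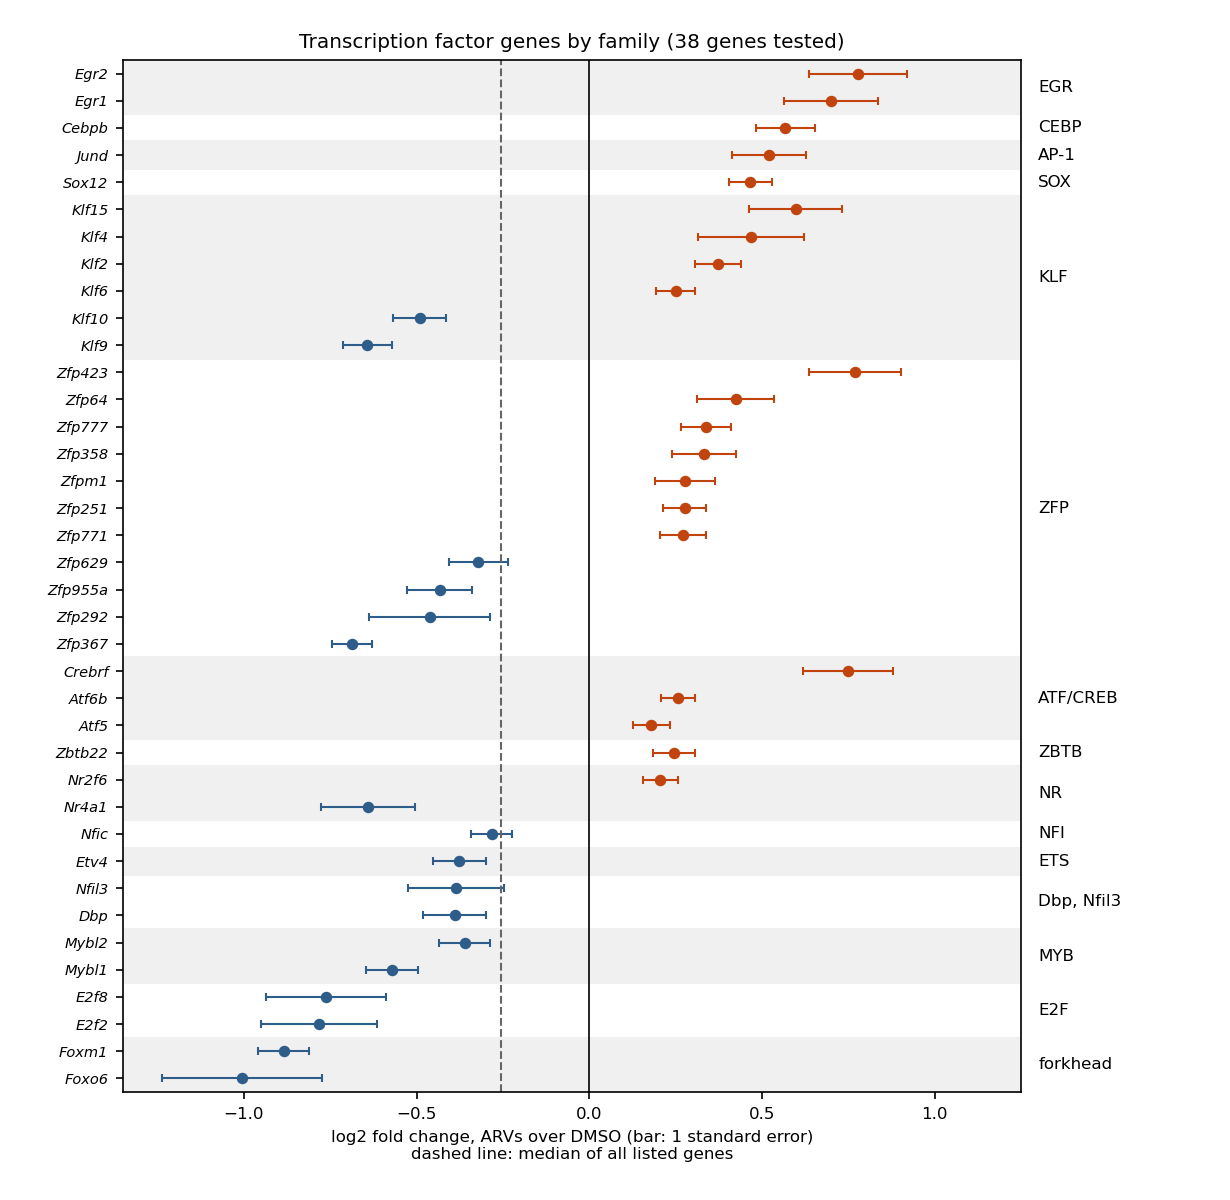
Log2 fold change of each of the 38 transcription factor genes tested (x axis, ARVs over DMSO, bars of 1 standard error), grouped by family (right). The dashed line is the median of all listed genes at -0.25. The EGR genes lie at 0.70 and 0.78, the forkhead, E2F and MYB genes between -1.01 and -0.36, and the KLF, ZFP and nuclear receptor genes on both sides of 0.

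Most families had only 1 or 2 genes in the table, so agreement in direction within them means little. Of all transcription factor genes tested 55.3% were higher, and of all listed genes 39.9%. Both EGR genes, all 3 ATF/CREB genes and the single CEBP, AP-1, SOX and ZBTB genes were higher. Both forkhead, both E2F and both MYB genes, Dbp and Nfil3, and the single ETS and NFI genes were lower. The KLF genes (4 higher, 2 lower), the genes named Zfp (7 higher, 4 lower of 11 tested) and the nuclear receptors (1 higher, 1 lower) went both ways. The HOX, TBX, IRF, STAT, SMAD, HES/HEY, TEAD and RUNX families had 0 genes in the table, and so did the FOS genes of the AP-1 family.

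Egr1 encodes a zinc finger factor that growth factors and stretch induce through serum response factor (SRF), which binds a short AT-rich element called the CArG box. It had normalized counts of 1112, 1250.0 and 1234 in ARVs replicates 1, 2 and 3, against 688, 915 and 608 in DMSO replicates 1, 2 and 3. All ARVs libraries were above all DMSO libraries, and DMSO replicate 2 was the highest of the controls. The log2 fold change was 0.70 (standard error, SE, 0.14, edgeR adjusted p = 0.0021). Egr2, its close relative, is expressed at a lower level. It had normalized counts of 143, 159 and 166 in ARVs libraries and of 83.9, 97.4 and 91.6 in DMSO libraries, and the controls lay closer together than for Egr1. Its log2 fold change was 0.78 (SE 0.14, edgeR adjusted p = 0.0017), close to those of Zfp423 (0.77) and Crebrf (0.75), from which it did not differ by more than its SE. Per length, Egr1 averaged 19.8 FPKM with ARVs and 11.97 FPKM with DMSO, and Egr2 averaged 2.5 FPKM with ARVs and 1.43 FPKM with DMSO.

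The DNA before the start sites of these genes was read from RefSeq (build GRCr8), in windows of 250 bases before to 50 bases after the start. Windows were matched for 29 of the 39 genes, 18 higher and 11 lower. Of the other 10, Klf2, Zfp251 and Zfp423 were higher, E2f2, E2f8, Foxm1, Mybl1, Klf10 and Etv4 were lower, and Zfp622 was not tested. Their promoters were not searched. A CArG box was found in 4 of the 29 (13.8%), against 26 of the 1308 listed genes with a window (1.99%) and 548 of all 33469 windows (1.64%). All 4 belonged to genes that were higher with ARVs (4 of 18 higher, 0 of 11 lower), and the lower genes without a window could not be counted. This split was not tested, and the CArG box was 1 of several motifs searched, the others being given below. The stretches below are shown because they carry these matches, with the CArG box in capitals and each read 5′ to 3′ on the strand of the gene. Egr1 had 2 boxes (chr18:26736938-26737037, plus strand) and Egr2 had 1 (chr20:21054482-21054581, minus strand), both shown from -140 to -41, where -1 is the last base before the start. The boxes of Klf6 (chr17:69458649-69458698, minus strand) and Zbtb22 (chr20:4971472-4971521, minus strand) began at -201 and -115.
Egr1: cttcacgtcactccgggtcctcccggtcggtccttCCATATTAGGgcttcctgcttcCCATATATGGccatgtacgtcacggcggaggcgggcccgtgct
Egr2: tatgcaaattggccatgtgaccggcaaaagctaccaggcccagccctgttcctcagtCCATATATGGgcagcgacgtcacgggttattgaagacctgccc
Klf6: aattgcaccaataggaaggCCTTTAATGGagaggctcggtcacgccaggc
Zbtb22: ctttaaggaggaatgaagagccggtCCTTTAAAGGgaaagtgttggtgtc

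Egr1 and Egr2 share the box CCATATATGG, which begins at -83 in both. A match to these letters is a description of the sequence, and SRF binding was not measured. The site that EGR proteins themselves read, GCGTGGGCG, was in 1 of the 29 windows, that of Jund, and in 0.765% of the windows of listed genes. It is in capitals in the Jund stretch (chr16:18769822-18769871, minus strand, -100 to -51).
Jund: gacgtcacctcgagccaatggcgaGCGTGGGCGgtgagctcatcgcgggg

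Jund, an AP-1 subunit, was the only AP-1 gene in the table and one of the most abundant of these genes, with 151 FPKM with ARVs and 103 FPKM with DMSO. Its normalized counts were 4494, 5068 and 5135 in ARVs libraries and 3569, 3838 and 2830.3 in DMSO libraries. The groups did not overlap, and the log2 fold change was 0.52 (SE 0.11, edgeR adjusted p = 0.0027). Jund lies near 2 other members on chromosome 16, Klf2 and Nr2f6, and all 3 were higher with ARVs. In the coordinates of the table (release 97), the stretch from Klf2 to Jund runs from 19223087 to 20486707. Other members lay within 2 Mb of each other too. Cebpb and Zfp64 were both higher, as were Atf6b and Zbtb22. Atf5 and Dbp went opposite ways, as did Zfp771 and Zfp629.

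Not every early response gene rose. Nr4a1 encodes NUR77, an orphan nuclear receptor whose gene is often induced together with Egr1. It had normalized counts of 253, 243 and 242 in ARVs libraries, against 435, 308 and 407 in DMSO libraries. The ARVs libraries were all below the DMSO libraries and close to each other, while DMSO replicate 2 was 0.731 times the mean of the other controls. The log2 fold change was -0.64 (SE 0.14, edgeR adjusted p = 0.003). The response element of NR4A proteins, AAAGGTCA, was in 0 of the 29 windows and in 0.459% of those of listed genes. The other nuclear receptor gene, Nr2f6, encodes an orphan receptor of the COUP-TF group and rose by a log2 fold change of 0.21 (SE 0.05).

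A list of 41 symbols of immediate-early and growth factor response genes, written with earlier results of these data known, had 12 in the table. Of these, 8 were transcription factor genes described here. Of the 12, 10 were higher and 2 lower (Nr4a1 and Klf10), with a median log2 fold change of 0.42, where 39.9% of all listed genes were higher. The other 4 were all higher. Dusp4, a phosphatase that turns off ERK, had a log2 fold change of 0.56 (SE 0.05), and Myc, a driver of growth and ribosome synthesis, had one of 0.68 (SE 0.11). Ccn1, a secreted matrix protein, and Ier5 had smaller ones, 0.29 (SE 0.08) and 0.23 (SE 0.06). Egr3, Fos, Fosb, Junb, Nr4a2, Nr4a3 and Atf3 are on the list and not in the table.

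**Figure D2:**
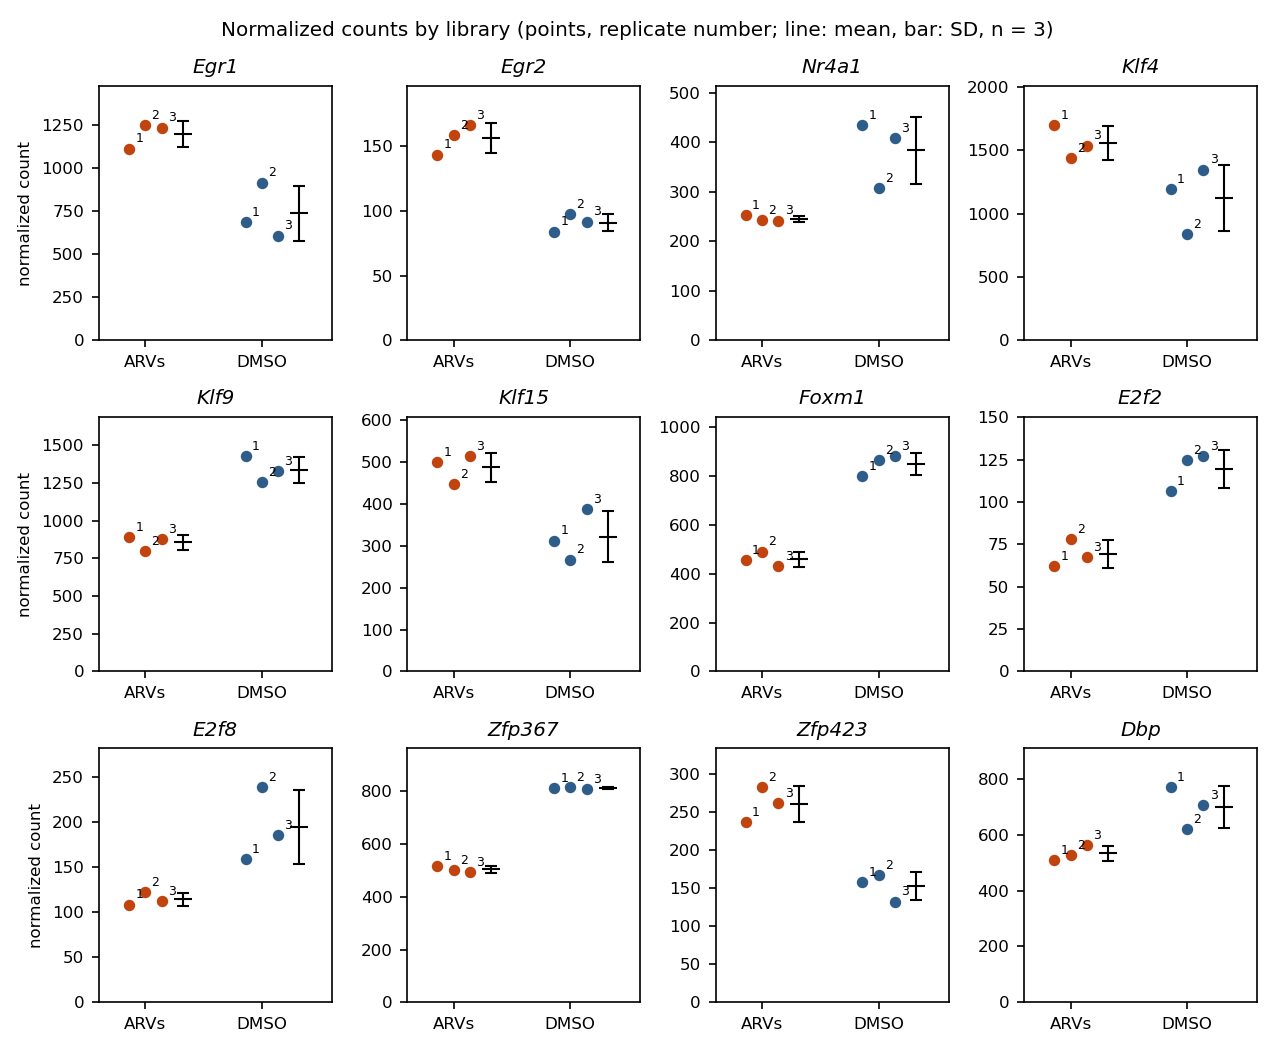
Normalized counts (y axis, from 0) of 12 transcription factor genes in each ARVs library (left) and DMSO library (right), numbered by replicate, with the mean and SD of 3 libraries. Egr1, Egr2, Klf4, Klf15 and Zfp423 lie higher with ARVs and the other 7 lower. DMSO replicate 2 departs from the other controls in Egr1, Nr4a1, Klf4, Klf15 and E2f8.

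KLF proteins share a C-terminal block of zinc fingers that reads GC-rich sequence, and 6 of their genes were in the table. Klf15, which glucocorticoids induce and which in mouse heart restrains growth, had normalized counts of 499.6, 447 and 515 in ARVs libraries and of 312, 267 and 387 in DMSO libraries. The groups did not overlap, and the log2 fold change was 0.60 (SE 0.13, edgeR adjusted p = 0.0036). DMSO replicate 2 was 0.764 times the mean of the other controls, and without it the log2 fold change was 0.48. Klf9, which is induced by glucocorticoid and by thyroid hormone, went the other way. It had 892, 799 and 878 counts in ARVs libraries, against 1429, 1255 and 1326 in DMSO libraries, a log2 fold change of -0.64 (SE 0.07, edgeR adjusted p = 1.8e-04), the largest fall in the family. Klf10, known as a gene induced early by TGF-beta, fell by 0.49 on the log2 scale (SE 0.08).

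Klf2, Klf4 and Klf6 rose. Klf2, which flow induces in endothelium, had a log2 fold change of 0.37 (SE 0.07). Klf6 had one of 0.25 (SE 0.06), with controls at 649, 644 and 656 counts that differed little. Klf4, one of the factors used to reprogram cells to pluripotency, had 1699, 1435 and 1535 counts in ARVs libraries and 1193, 838 and 1345 in DMSO libraries. Its DMSO replicate 2 was 0.661 times the mean of the other controls, and its log2 fold change of 0.47 (SE 0.15, edgeR adjusted p = 0.015) did not pass without ARVs replicate 1 (0.40, adjusted p = 0.0653 from edgeR) and was smaller, at 0.30, without DMSO replicate 2. Per length, the family averaged between 10.1 and 36.8 FPKM with ARVs and between 6.73 and 27.9 FPKM with DMSO. Klf15 was the lowest of the 6 with DMSO and Klf10 the lowest with ARVs. Of 20 glucocorticoid-induced genes on a list, 3 were in the table: Klf15 was higher, and Klf9 and Errfi1, a feedback inhibitor of the EGF receptor, were lower (Errfi1 log2 fold change -0.39, SE 0.10).

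Among the factors of the cell cycle, FOXM1 is the forkhead protein that drives genes of mitosis, and MYBL2 (B-MYB) works with the MuvB proteins at the same genes. Foxm1 had normalized counts of 457, 491 and 431 in ARVs libraries, against 801, 865 and 884 in DMSO libraries. The groups lay far apart relative to their spread, and the log2 fold change of -0.88 (SE 0.07) had an adjusted p of 5.4e-05 from edgeR. Mybl2 fell less, by 0.36 on the log2 scale (SE 0.07), and its groups did not overlap. With median-ratio factors, a scaling taken from the listed genes themselves, Mybl2 was at -0.16 and did not pass (edgeR adjusted p = 0.0991). Mybl1, which encodes A-MYB, had 367, 415 and 396 counts in ARVs libraries and 593, 561 and 598 in DMSO libraries, a log2 fold change of -0.57 (SE 0.08, edgeR adjusted p = 4.4e-04).

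E2f2, an activator at the entry to S phase, was the least abundant of the genes tested at 0.758 FPKM with ARVs and 1.28 FPKM with DMSO. Its normalized counts were 61.9, 78.0 and 67.5 in ARVs libraries and 107, 124 and 127 in DMSO libraries (log2 fold change -0.78, SE 0.17, edgeR adjusted p = 0.0031). E2f8, an atypical E2F that represses, had 108, 122 and 112 counts in ARVs libraries and 159, 239 and 185 in DMSO libraries (log2 fold change -0.76, SE 0.17, edgeR adjusted p = 0.0038). Without DMSO replicate 2, the highest of its controls, the log2 fold change of E2f8 was -0.58. An activator and a repressor of the E2F family fell together, and the difference between them was not tested.

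Of 31 cell cycle transcription factors, their partners and their targets on a list, the table held 16. They include the 5 genes E2f2, E2f8, Mybl1, Mybl2 and Foxm1 described above, and the list was written with earlier results known. Of all listed genes 60.1% were lower (median -0.25), and all 16 of these were lower, with a median log2 fold change of -0.79. The MuvB subunits Lin9 and Lin54 and the pocket protein gene Rbl1 were among them, at -0.82 (SE 0.17), -0.42 (SE 0.08) and -0.51 (SE 0.11), and were chosen after their values were seen. The list also held Ccnb1, cyclin B, at -1.07 (SE 0.08), the mitotic kinase gene Aurka, at -1.17 (SE 0.09), Cdk1 at -0.93 (SE 0.08) and the kinetochore gene Cenpf at -0.78 (SE 0.07). Smooth muscle markers fell as well (6 of 6 in the table, median log2 fold change -0.54), and fibroblast markers went both ways (2 higher, 3 lower). Their part in the change of the cell cycle factors was not tested.

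Zfp367, a zinc finger gene, was lower too, with normalized counts of 516, 500.4 and 493 in ARVs libraries, against 810.5, 815 and 805 in DMSO libraries. It had the tightest controls of all the genes here, the highest being 1.01 times the lowest, and a log2 fold change of -0.69 (SE 0.06, edgeR adjusted p = 5.5e-05). Its window held the E2F motif TTTCCCGC, on the minus strand and so printed here as its reverse complement in capitals (chr17:970836-970895, plus strand, the 60 bases before the start). The same letters were in 2 of the 29 windows, the other being that of Zfp64, which was higher, and in 1.99% of those of listed genes.
Zfp367: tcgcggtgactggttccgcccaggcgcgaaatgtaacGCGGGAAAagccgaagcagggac

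The other forkhead gene, Foxo6, is of the FOXO group that insulin signalling keeps out of the nucleus. It had 58.8, 65.3 and 55.1 counts in ARVs libraries and 106, 160.1 and 94.8 in DMSO libraries. Its log2 fold change of -1.01 (SE 0.23, edgeR adjusted p = 0.0039) rests partly on DMSO replicate 2, the highest of the controls. Without that library the log2 fold change was -0.74.

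Of the bZIP genes, 5 were higher and 2 lower. Cebpb, a factor of inflammation and of the response to amino acid shortage, had normalized counts of 1255, 1202 and 1293 in ARVs libraries and of 935, 739 and 854 in DMSO libraries. The groups did not overlap (log2 fold change 0.57, SE 0.09, edgeR adjusted p = 8.3e-04). Macrophage and leukocyte markers were higher too, 3 of the 4 listed (median log2 fold change 0.42), and their part in this result was not tested. Crebrf encodes a regulator of the membrane-bound factor CREB3 and is itself no classical CREB protein. It had 1188, 1232 and 1175 counts in ARVs libraries, against 655, 887 and 596 in DMSO libraries, a log2 fold change of 0.75 (SE 0.13, edgeR adjusted p = 0.0015). Atf6b, a relative of the endoplasmic reticulum stress sensor ATF6, rose by 0.26 (SE 0.05), and Atf5, a factor of the mitochondrial unfolded protein response, by 0.18 (SE 0.05). These rises were the smaller ones of the family, in the genes with the highest levels: Atf5 averaged 196 FPKM with ARVs and 170 FPKM with DMSO, and Atf6b 136 FPKM with ARVs and 112 FPKM with DMSO. Of 25 genes of the integrated stress response on a list, 14 were in the table, Atf5 and Cebpb among them. The list was written with earlier results known. Where 39.9% of all listed genes were higher, 13 of the 14 were higher and 1 lower, with a median log2 fold change of 0.32. Gdf15, a secreted stress hormone, had the smallest adjusted p of them (log2 fold change 0.90, SE 0.09, edgeR adjusted p = 1.3e-04), and the cystine transporter subunits Slc7a11 and Slc3a2 had log2 fold changes of 0.69 (SE 0.11) and 0.39 (SE 0.05). Sesn2, a sensor in mTORC1 control, had one of 0.39 (SE 0.05).

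Dbp and Nfil3 encode bZIP proteins that read the same element, the D-box, DBP as an activator and NFIL3 as a repressor, and both genes were lower with ARVs. Dbp had normalized counts of 509.9, 527 and 563 in ARVs libraries and of 771, 619 and 705 in DMSO libraries. The groups did not overlap, and the log2 fold change was -0.39 (SE 0.09, edgeR adjusted p = 0.0041). With median-ratio factors Dbp was at -0.19 and did not pass (edgeR adjusted p = 0.0678). Nfil3 had the same log2 fold change, -0.39, with a larger standard error of 0.14. Its counts were 508, 473 and 449.9 in ARVs libraries and 657, 486 and 729.7 in DMSO libraries, so that DMSO replicate 2 lay within the range of the ARVs libraries. Without DMSO replicate 2 its log2 fold change was -0.54. It did not pass without DMSO replicate 1 (-0.35), DMSO replicate 3 (-0.26), ARVs replicate 2 (-0.38) or ARVs replicate 3 (-0.35), with adjusted p of 0.0623 to 0.0815 from edgeR. Of 20 clock gene symbols on a list, these were the only 2 in the table. Neither D-box sequence searched, TTATGTAA or TTACGTAA, was in any of the 29 windows. Both are rare, being in 0.153% and 0.229% of the windows of listed genes.

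**Figure D3:**
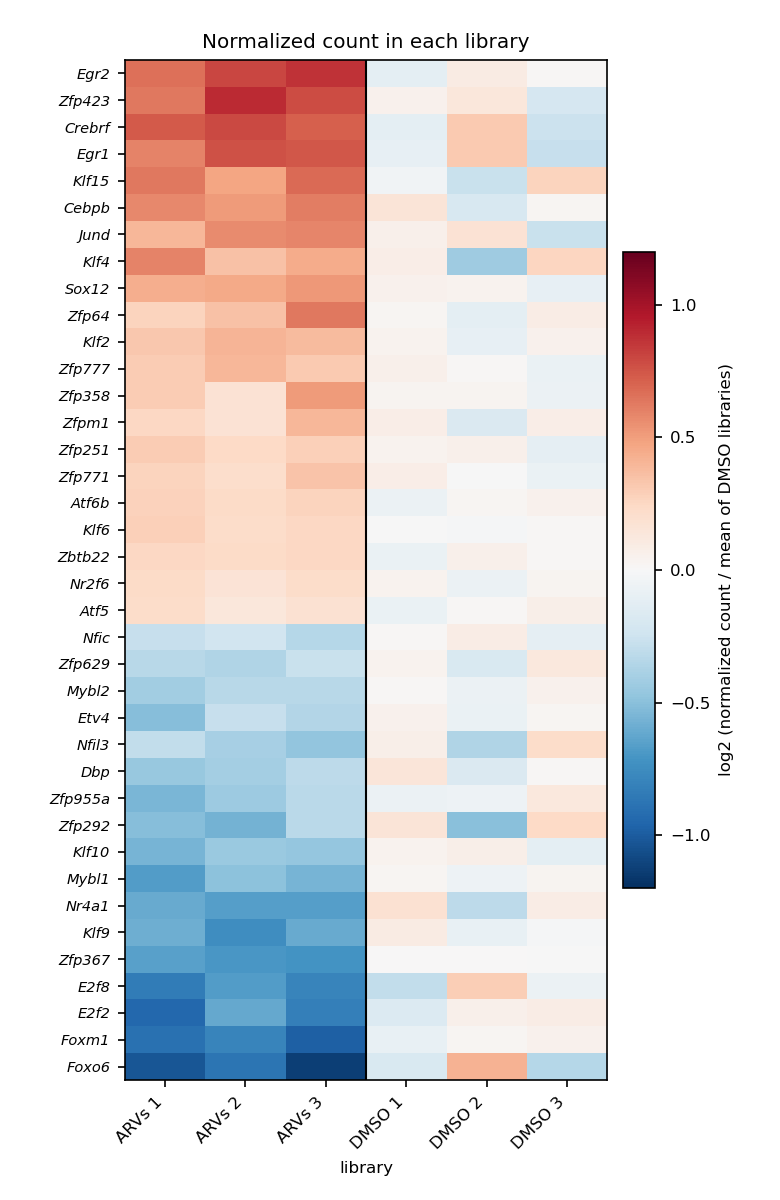
Normalized count of the 38 genes tested in each library, as log2 of its ratio to the mean of the DMSO libraries (colour), ordered by log2 fold change. Each row has ARVs libraries on 1 side of the DMSO mean. DMSO replicate 2 is the lowest control for Zfp292, Klf4, Nfil3, Nr4a1 and Klf15 and the highest for Foxo6, Crebrf, Egr1 and E2f8.

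Of the 12 genes named Zfp, most encode C2H2 zinc finger proteins with no role assigned here, and such genes have close relatives with which reads can be shared. Zfp423, a multi-finger factor of fat cell commitment in the mouse, had 237, 284 and 262 normalized counts in ARVs libraries and 158, 168 and 133 in DMSO libraries. It had the largest rise of these 12 genes (log2 fold change 0.77, SE 0.13, edgeR adjusted p = 0.0014). Zfpm1, also called FOG1, is a partner of GATA factors and rose by 0.28 (SE 0.09), a call that was lost without ARVs replicate 3 (adjusted p = 0.0592). Zfp64 (0.42), Zfp777 (0.34), Zfp358 (0.33), Zfp251 (0.28) and Zfp771 (0.27) were the other higher genes.

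The lower ones beside Zfp367 were Zfp292 (-0.46), Zfp955a (-0.43) and Zfp629 (-0.32). With median-ratio factors Zfp955a was at -0.23 (edgeR adjusted p = 0.0597), Zfp629 at -0.12 (edgeR adjusted p = 0.184) and Zfp292 at -0.26 (edgeR adjusted p = 0.154), and none of the 3 passed. Zfp292 had 606, 582 and 689 counts in ARVs libraries and 961, 609.7 and 1014 in DMSO libraries, and DMSO replicate 2 fell among the ARVs libraries. Its call was lost without DMSO replicate 1 (-0.37), DMSO replicate 3 (-0.33), ARVs replicate 1 (-0.44) or ARVs replicate 2 (-0.41), with adjusted p of 0.0851 to 0.102 from edgeR, and without DMSO replicate 2 it was -0.66. Zfp771 and Zfp629 lie 193.0 kb apart on chromosome 1 in the table's coordinates and moved in opposite directions.

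Zfp622, which encodes a factor of ribosome assembly, did not pass the filter on low counts and has no fold change here. It had raw counts of 1, 2 and 2 in ARVs replicates 1, 2 and 3 and of 79, 30 and 2 in DMSO replicates 1, 2 and 3. DMSO replicate 3 was at the level of the ARVs libraries, so the difference between the groups came from 2 of the 3 controls.

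The 4 families with a single gene left were SOX, ETS, NFI and ZBTB. Sox12, of the SoxC group of HMG box factors, had normalized counts of 1363, 1379.6 and 1446 in ARVs libraries and of 1045, 1039 and 944 in DMSO libraries (log2 fold change 0.47, SE 0.06, edgeR adjusted p = 4.3e-04). Etv4, an ETS factor downstream of FGF and ERK signalling, had 676, 797 and 756 counts in ARVs libraries and 1002, 913 and 979.7 in DMSO libraries (log2 fold change -0.38, SE 0.08, edgeR adjusted p = 0.0025). Etv4 thus fell where Dusp4 and Egr1, also targets of ERK signalling, rose. Nfic, of the nuclear factor I family, had 2315, 2388 and 2214 counts in ARVs libraries and 2839, 2975 and 2602 in DMSO libraries (log2 fold change -0.28, SE 0.06). Zbtb22 had 857, 847 and 857 counts in ARVs libraries and 681, 753 and 728 in DMSO libraries (log2 fold change 0.24, SE 0.06). In all 4 the groups did not overlap. With median-ratio factors Etv4 was at -0.18 (edgeR adjusted p = 0.0713) and Nfic at -0.085 (edgeR adjusted p = 0.328), and neither passed.

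Levels per length spanned a wide range. Atf5, Atf6b, Jund and Nfic had the highest mean FPKM with DMSO, from 91.0 to 170, and E2f2, Zfp622, Egr2 and Zfp423 the lowest, from 1.28 to 1.66. The median was 14.3 FPKM with ARVs and 14.2 FPKM with DMSO, against 19.2 FPKM with ARVs and 19.8 FPKM with DMSO for all listed genes. Of the E2F and MYB genes, Mybl2 was the highest, at 5.62 FPKM with ARVs and 7.07 FPKM with DMSO.

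**Figure D4:**
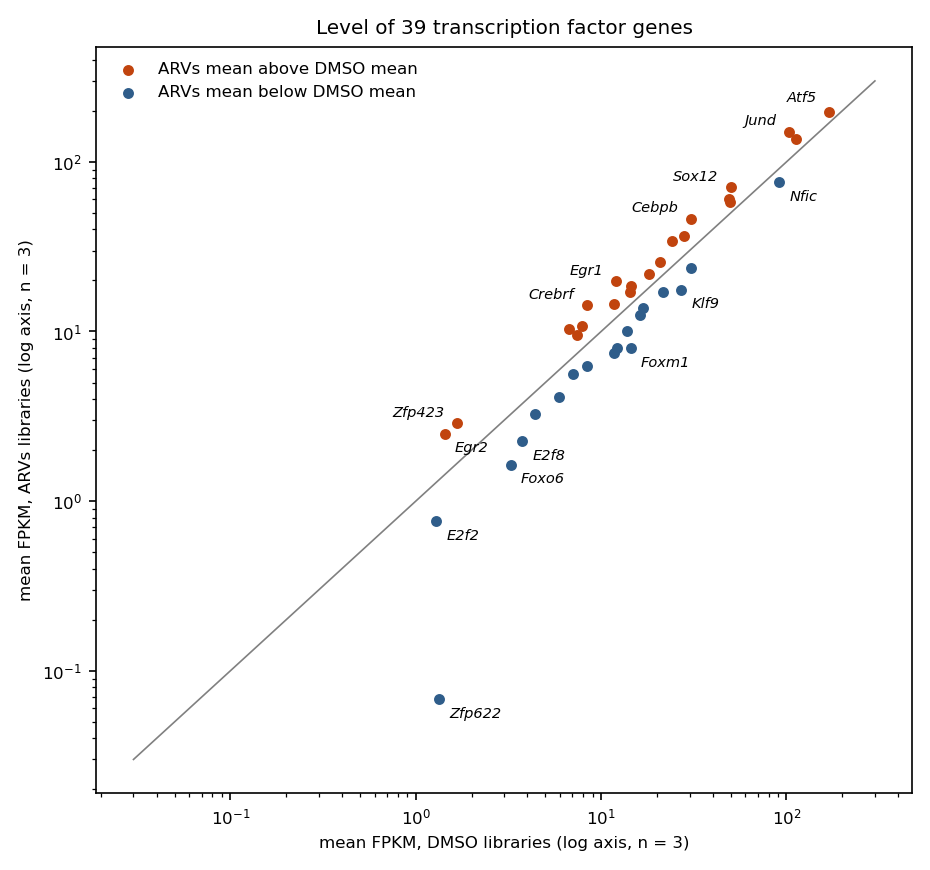
Mean FPKM of the 39 genes in ARVs libraries (y axis) against DMSO libraries (x axis), both on log axes, with the line of equal level. Most points lie close to the line. Zfp622 lies far below it, at 0.0683 FPKM with ARVs and 1.34 FPKM with DMSO.

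The 29 promoter windows were GC-rich, with a median GC content of 64.67%, against 61.67% for the 1308 listed genes and 51.67% for all 33469 windows. The GC box GGGCGG was in 58.6% of them and in 64.8% of those of listed genes. The box CCAAT was in 41.4% and 40%. The E-box CACGTG, read by clock and MYC proteins, was in 6 of 29 (20.7%: Crebrf, Klf15, Klf6, Nfic, Zfp292 and Zfp771), against 10.2% of listed genes. By direction, the E-box was in 4 of 18 higher and 2 of 11 lower genes. The GC box was in 12 higher and 5 lower genes, and CCAAT in 8 higher and 4 lower. The cAMP element TGACGTCA was in 1 (Jund, 3.45%), against 2.83%, and the cell cycle element TTTGAA in 2 (Klf6 and Nfic, 6.9%), against 15.6%. The second E2F motif, TTTGGCGC, was in 0 of 29 and in 1.83% of listed genes. E2f2, E2f8, Foxm1 and Mybl1 had no window, so these counts do not cover them. Both strands were searched. In Jund the EGR site and a GC box overlap.

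The scaling changed the calls of some lower genes. Factors from the median ratio over the listed genes left 30 of the 38 calls, the 21 higher and 9 lower. TMM, a scaling that takes most genes as unchanged, passed 90.3% of the listed genes and 36 of the 38 transcription factor genes, the 21 higher and 15 of the 17 lower. Nfil3 (adjusted p = 0.0709) and Zfp292 (adjusted p = 0.0684) did not pass edgeR's test with it.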

How the data were processed

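RNA of NRVCs treated with ARVs or DMSO was sequenced by the authors, 3 libraries each. HISAT2 was their aligner, with release 97 of the rat genome, and StringTie their assembler. The program that counted reads is not given in the sources used here. The deposited table holds raw read counts, a normalized signal (the authors' count divided by 1 size factor per library) and the authors' FPKM, for genes they had called. FPKM imply library totals of 17347680 to 22126119 counts. Columns with the authors' own fold changes and p-values were not used.

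Counts were tested in R 4.3.3 with edgeR 4.0.16 (filterByExpr, glmQLFit, glmQLFTest, two-sided), with effective library sizes set by the authors' size factors, since a scaling computed over called genes takes them as unchanged. The filter removed 5 genes. Standard errors come from the fold change and the F value. Tests were checked on simulated counts. Alternatives were TMM, median-ratio factors, DESeq2 1.42.0, no filter, 10 counts in every library, each library left out, and the replicate number as a block. Same-numbered libraries deviated together with r of 0.0853, 0.276 and 0.0999 across genes, and unlike-numbered ones with r from -0.27 to 0.188. The authors describe no pairing in their test, and numbers were not used to pair libraries in the main fit.

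Members, gene lists and rules were chosen with earlier results of these data known. Every member is named. Values in every library are given for members past 1.5-fold and the largest change of each family. Of each list, up to 4 other genes with the smallest adjusted p are named. Values of Klf4, Klf6, Nfil3, Zfp292 and Zfp622 in every library, and the sequences of Klf6, Zbtb22, Jund and Zfp367, were chosen after the values were seen. Promoter windows are those of RefSeq, matched by symbol or Ensembl ID.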

Additional observations from a re-analysis of the deposited data

How the results depend on the processing

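The 21 higher and 17 lower transcription factor genes kept their direction under every alternative run. DESeq2, both other filters and the fit with the replicate block (21 higher and 17 lower, 699 and 1052 over the listed genes) lost no member's call. The block lowered the SE of some members (Zfp292 from 0.17 to 0.11, Klf4 from 0.15 to 0.099) and raised that of others (Zfp367 from 0.058 to 0.068). Leaving out 1 library gave 20 to 21 higher and 15 to 17 lower members, and 672 to 701 higher and 985 to 1050 lower listed genes. With factors from the median ratio, 9 members and 536 listed genes were lower, and Dbp, Etv4, Mybl2, Nfic, Nfil3, Zfp292, Zfp629 and Zfp955a did not pass. Such factors lift all log2 fold changes by a median of 0.20, and TMM by 0.10. The 8 calls lost had log2 fold changes of -0.28 (Nfic) to -0.46 (Zfp292) with the authors' size factors.

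With TMM and with median-ratio factors, the family medians were 0.35 and 0.45 (ATF/CREB), -0.29 and -0.18 (Dbp and Nfil3), 0.41 and 0.51 (KLF), -0.37 and -0.27 (MYB), -0.12 and -0.015 (nuclear receptors), 0.37 and 0.47 (Zfp genes), 0.32 and 0.42 (all transcription factor genes) and -0.16 and -0.055 (all listed genes). With median-ratio factors alone, those of E2F, EGR and forkhead were -0.58, 0.94 and -0.75. Leaving out 1 library moved the medians within 0.22 to 0.28 for ATF/CREB, -0.50 to -0.32 for Dbp and Nfil3, 0.68 to 0.86 for EGR, -1.01 to -0.81 for forkhead, 0.27 to 0.33 for KLF, -0.30 to -0.16 for nuclear receptors and -0.26 to -0.24 for all listed genes. Zfp622 was fitted only with no filter, where it was an additional lower call (18 in all). With 3 libraries a group, differences near the spread of the controls are not resolved.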
